A study of Mus musculus with 21 samples.

Results

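The 9 genes described here act in retinoid metabolism: Rbp2, Lrat, Adh1, Rdh7, Aldh1a1, Aldh1a2, Aldh1a3, Cyp26b1 and Isx. The set is defined by gene symbol, and all 9 were found among the 21441 genes of each deposited table. RNA was sequenced from the colon and ileum of C57BL6J mice with different states of VDR, the vitamin D receptor, which is activated by 1,25-dihydroxyvitamin D3 (1,25D3). Treated mice were CDX2-VDR transgenic males aged 9 weeks that had received 1,25D3 at 1 ng/g body weight in 3 injections, at 48, 24 and 6 h before tissue was taken. Uninjected mice carried the same transgene, were aged 9 or 10 weeks and were labelled female in 5 of 7 samples. KO mice were males of the genotype Villin-CreERT2 VDR f/f, untreated by the labels, 1 aged 9 weeks and 3 aged 11 weeks in each tissue. There were 3 treated, 4 uninjected and 4 KO libraries of the colon, and 3 treated, 3 uninjected and 4 KO libraries of the ileum. By the labels, transgenic mice have no VDR of their own and make human VDR in the distal gut alone, whereas in KO mice the floxed gene is removed by an inducible Cre under the villin promoter of the intestinal epithelium (the inducer is not given in the sources used here). Genotype, transgene, sex and age therefore partly coincide with group, and 1,25D3 was given only to injected mice, so that their parts cannot be told apart.

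Retinoids enter the enterocyte as retinol or as carotenoids that are cleaved to retinal. Inside the cell retinol is held by a binding protein and esterified for export or storage, or it is oxidised to retinal and then irreversibly to retinoic acid. Retinoic acid binds receptors that pair with RXR on DNA, the same partner that VDR uses, and enzymes of the CYP26 family break it down.

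Promoters are shown for Rbp2, the most abundant member in the ileum, and for Lrat and Aldh1a1, the members with the smallest p-values in the comparisons of the ileum. Each is the RefSeq sequence (GRCm38.p6, gene strand, 5′ to 3′) from 250 bases before to 50 bases after a transcription start, at chr9:98490287-98490586 (plus strand) for Rbp2, chr3:82903925-82904224 (minus strand) for Lrat and chr19:20601718-20602017 (plus strand) for Aldh1a1. Capitals mark the nuclear receptor hexamer AGGTCA or its reverse complement.
Rbp2: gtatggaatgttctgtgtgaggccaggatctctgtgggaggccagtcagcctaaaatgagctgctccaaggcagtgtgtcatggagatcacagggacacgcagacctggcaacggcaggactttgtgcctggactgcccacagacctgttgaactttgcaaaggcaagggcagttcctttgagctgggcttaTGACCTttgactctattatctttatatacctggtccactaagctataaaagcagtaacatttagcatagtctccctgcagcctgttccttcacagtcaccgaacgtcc
Lrat: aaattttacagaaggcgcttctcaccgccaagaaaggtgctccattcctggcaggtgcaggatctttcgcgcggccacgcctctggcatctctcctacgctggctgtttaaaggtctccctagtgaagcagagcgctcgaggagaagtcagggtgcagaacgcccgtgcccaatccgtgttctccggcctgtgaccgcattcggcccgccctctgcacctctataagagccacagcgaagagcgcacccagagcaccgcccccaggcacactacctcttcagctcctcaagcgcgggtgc
Aldh1a1: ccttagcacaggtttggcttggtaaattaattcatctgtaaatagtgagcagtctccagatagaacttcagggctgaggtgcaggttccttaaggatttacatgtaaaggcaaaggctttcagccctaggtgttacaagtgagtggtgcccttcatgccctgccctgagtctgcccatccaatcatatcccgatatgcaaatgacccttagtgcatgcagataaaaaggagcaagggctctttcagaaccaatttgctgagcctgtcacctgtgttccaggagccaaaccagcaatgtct
The hexamer of Rbp2 starts at position -58 from the transcription start and reads on the reverse strand. Of the 10 promoters listed for 8 of the 9 members, 2 held this hexamer on either strand, those of Rbp2 and Rdh7, against 16.3% of all 32851 promoters of this length. Direct repeats of this hexamer or its variants (GGGTCA; also AGTTCA, and with both changes GGTTCA), in any pairing, were searched on both strands with spacers of 1, 3, 4 or 5 bases, the arrangements known for nuclear receptor pairs. None of the 10 member promoters held one, and of all promoters 0.222%, 0.0396%, 0.0822% and 0.0974% did at the spacers in that order.

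Levels are deposited FPKM (fragments per kilobase of transcript, scaled to library size), with the treated libraries of a tissue brought to the scale of its uninjected and KO libraries through a KO library that 2 tables share. Between 16173 and 17109 genes were above 0 in the colon libraries and between 15548 and 17110 in the ileum libraries, and whole reads worked back from the deposited values came to 8553918 to 34311336 per library in the colon and 16072076 to 39784414 in the ileum, over the genes where this was possible. All 8 enterocyte markers were above 0 in every library, but smooth muscle markers (6 genes) summed to 695 to 7865 FPKM in the colon and 754 to 3030 FPKM in the ileum, so RNA of smooth muscle was present in samples labelled as epithelium. Pancreatic acinar markers (12 genes) summed to 118960 FPKM in Colon uninjected 3, 37336 in Colon KO 2 and 20135 in Colon treated 4, and to at most 913 FPKM in the other colon libraries. Colon uninjected 3 also held markers of the ileal segment (4 genes) at 1023.5 FPKM, against at most 213 in the other colon libraries. Mouse Vdr was read at 12.7 to 37.6 FPKM in the colon and 12.9 to 24.9 FPKM in the ileum, which cannot check the labels, since the values do not separate the deleted part of the gene. Y-linked Ddx3y was over 1 FPKM in all 14 treated and KO libraries and in 4 of 7 uninjected ones. Colon uninjected 3 goes against its label of female in this, and so does at least 1 uninjected ileum library, since 2 of those 3 are labelled female and 2 were over 1 FPKM. Those over it were Ileum uninjected 4 at 8.98 FPKM and Ileum uninjected 3 at 2.32 FPKM, so the conflict in the ileum depends on the line of 1 FPKM. Ddx3y was at 1.69 FPKM in Ileum treated 1, labelled male, against 10.9 and 14.5 FPKM in the other treated ileum libraries. The labels name no animals, so the p-values below reflect variation among these particular samples, some of which may be technical.

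The members fell into an abundant and a scarce set, and the leading gene differed between the tissues. In the colon, Adh1 was the highest of the 9 in each of the 11 libraries, at 204 to 1197 FPKM. In the ileum, Rbp2 was the highest in each of the 10 libraries, at 129 to 1979 FPKM, and Adh1 stood at 20.2 to 69.1 FPKM. Aldh1a1 (34.5 to 220 FPKM in the colon, 26.2 to 118 in the ileum) and Isx (23.8 to 72.8 and 49.3 to 84.7 FPKM) were the other abundant members in both tissues. Aldh1a2, Aldh1a3, Lrat and Cyp26b1 stayed under 9 FPKM in every library, and Cyp26b1 ranked last or next to last among the 9 in all ileum libraries. The ranges of Adh1 and Rbp2 did not overlap between colon and ileum except for Rbp2 at 161 FPKM in Colon uninjected 1, against 129 FPKM in Ileum KO 4. The tables of the tissues were scaled separately, so these levels were not tested against each other.

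**Figure D1:**
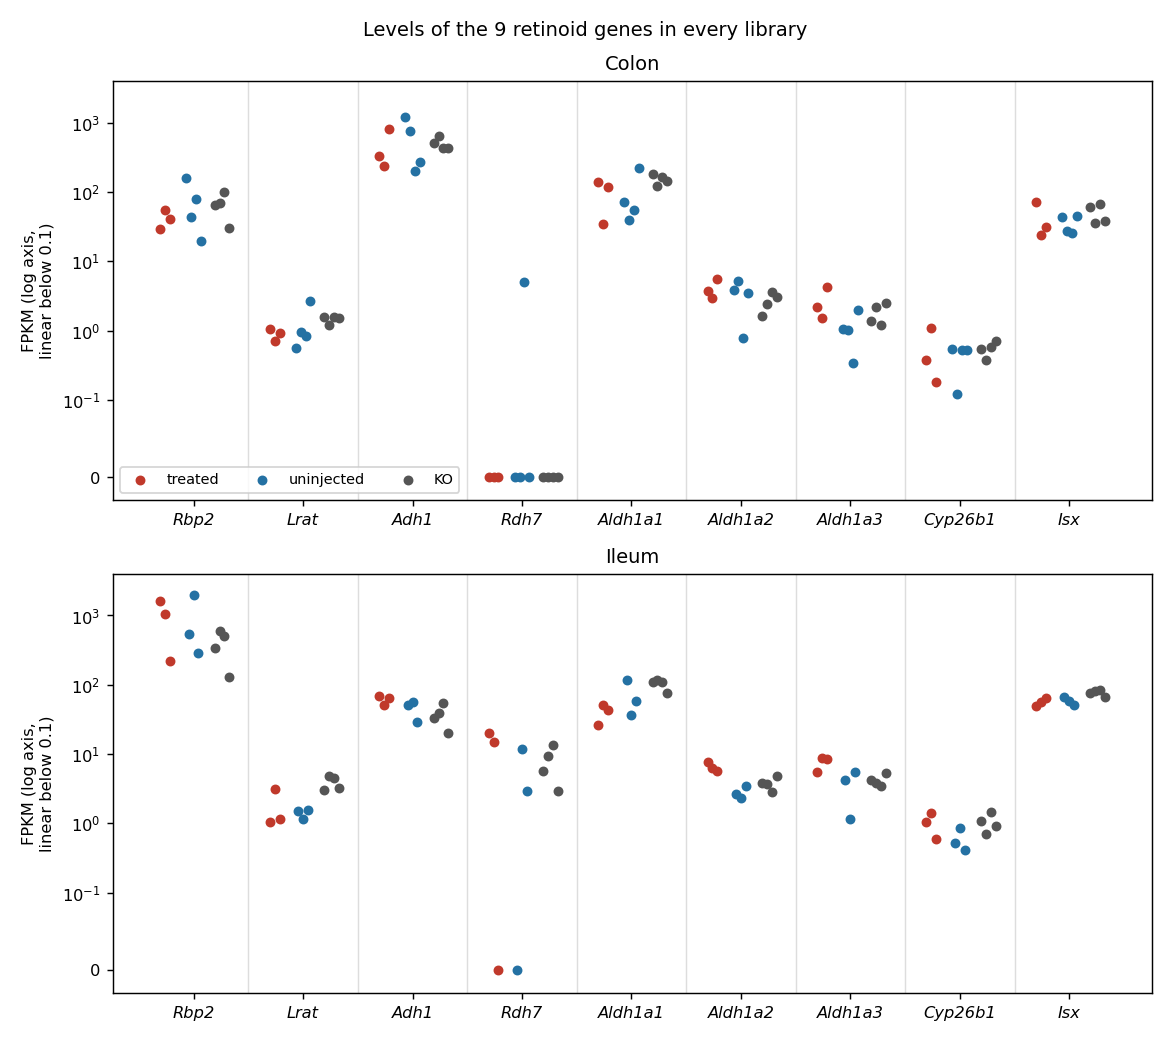
Level of each of the 9 genes (FPKM, log axis, linear below 0.1) in the 11 colon libraries (top) and 10 ileum libraries (bottom), 1 point per library, for the treated, uninjected and KO groups. Adh1 is the highest gene in the colon and Rbp2 in the ileum, and Rdh7 is at 0 in 10 of 11 colon libraries.

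No member passed the test in any of the 6 comparisons between groups. limma was run on log2(FPKM + 0.5) over all genes averaging 1 FPKM or more, with Benjamini-Hochberg adjustment and a threshold of 0.05, so that a log2 difference is on that scale and understates changes of low genes. For treated minus KO colon, 0 of 7 members tested passed and 1 had an unadjusted p under 0.05, against 37 of 12505 genes (0.296%) passing and 914 (7.31%) at an unadjusted p under 0.05. For uninjected minus KO colon, 0 of 7 passed and 0 had such an unadjusted p, against 10 of 12437 genes (0.0804%) and 572 (4.6%). For treated minus uninjected colon, both counts were 0 of 7, against 0 of 12567 genes (0%) and 143 (1.14%). In the ileum, treated minus KO gave 0 of 9 members passing and 5 with an unadjusted p under 0.05, against 10 of 11974 genes (0.0835%) and 437 (3.65%). Uninjected minus KO ileum gave 0 and 1 of 8 members, against 1 of 11827 genes (0.00846%) and 641 (5.42%), and treated minus uninjected ileum gave 0 and 1 of 8 members, against 0 of 11815 genes (0%) and 97 (0.821%). With limma's voom on the recovered reads the count of members was also 0 in each comparison. With array weights, which let limma weigh libraries unequally, it was 0, 4 and 1 in the colon and 6, 2 and 3 in the ileum (treated minus KO, uninjected minus KO, treated minus uninjected). Among all genes tested, many more were also called with array weights in each comparison. Their counts stand beside those of the members in the last section, and the member counts alone are not a result about the members. In the ileum fits with treated mice Ileum treated 2 then carried 97.9% and 95.4% of the weight and the weights did not converge. The 3 comparisons of a tissue share their libraries and are not independent of each other. The members were chosen with earlier results of these data known, so their counts beside the shares of all genes are not a test of the set.

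**Figure D2:**
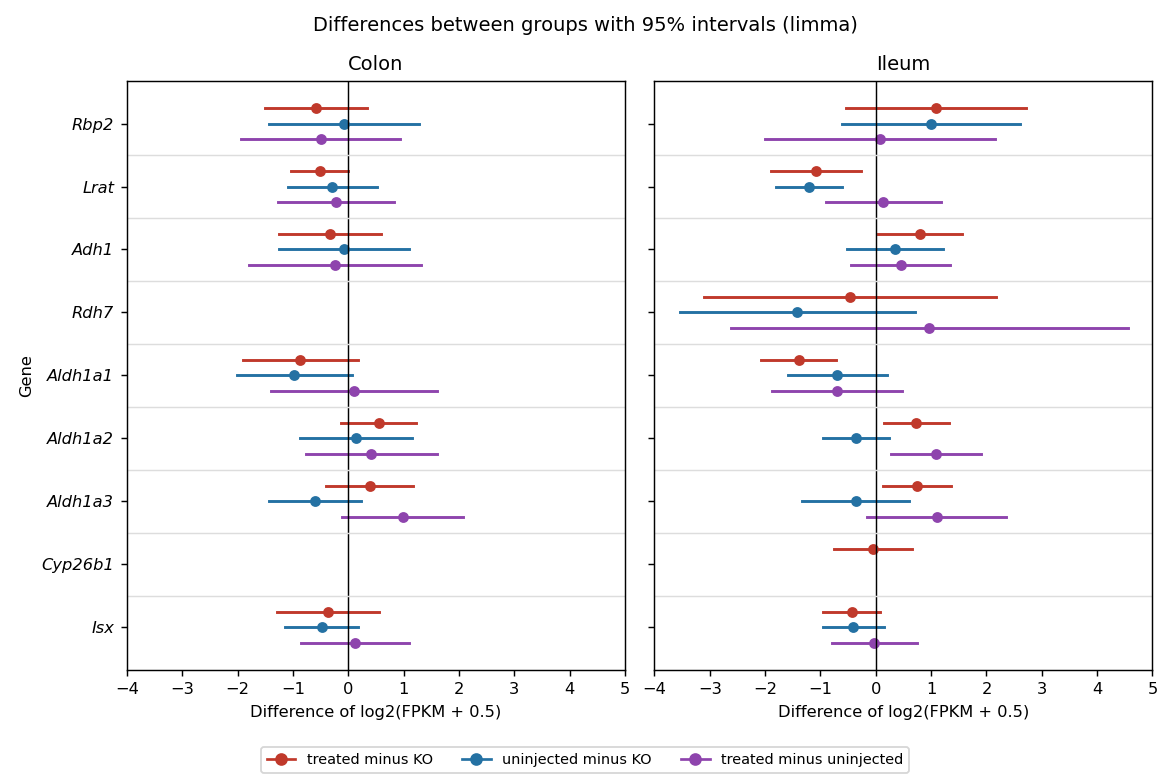
Difference of log2(FPKM + 0.5) between groups for each gene, with its 95% interval from limma (point and line), in colon (left) and ileum (right); positive values mean higher in the group named first. Genes under a mean of 1 FPKM in a table have no line, and the intervals of Rdh7 in the ileum, from -3.54 to 4.55 over its 3 comparisons, are the widest.

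Among the genes of retinol binding and storage, Lrat averaged 1.77 ± 1.16 FPKM in treated, 1.41 ± 0.210 in uninjected and 3.96 ± 0.924 in KO ileum (SD, n = 3, 3 and 4) without passing the threshold, and Rbp2 spread too widely within groups for a difference to be detectable. Lrat, the enzyme that esterifies retinol (mm9, 3:82696501-82707895, minus strand), stood at 1.03, 3.11 and 1.17 FPKM in treated, 1.51, 1.17 and 1.54 in uninjected, and 3.07, 4.91, 4.59 and 3.26 in KO ileum libraries. All 3 uninjected libraries lay below all 4 KO libraries, whereas Ileum treated 2 lay within the KO range. The log2 difference of Lrat was -1.21 for uninjected minus KO (95% interval -1.80 to -0.61, unadjusted p = 0.0013, adjusted p = 0.665, limma) and -1.08 for treated minus KO (-1.89 to -0.27, unadjusted p = 0.0145, adjusted p = 0.939, limma). Treated and uninjected ileum differed in Lrat by 0.14 (-0.90 to 1.17), less than the spread within either comparison could resolve. These values rest on 105 to 921 recovered reads per library. In bulk tissue, fewer cells of a type and less RNA per cell cannot be told apart.

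In the colon, Lrat was at 1.06, 0.711 and 0.914 FPKM in treated, 0.559, 0.966, 0.852 and 2.72 in uninjected, and 1.59, 1.22, 1.56 and 1.53 in KO libraries. The treated libraries all lay below the KO libraries, and Colon uninjected 4 lay above both groups. Goblet cell markers (4 genes) summed to 4258 to 5614 FPKM in treated, 5380 to 11728 in uninjected and 6725 to 12418 in KO colon, and smooth muscle markers (6 genes) to 1289 to 1604, 695 to 7865 and 2148 to 2991 FPKM in the same groups. Both sums were lower in every treated than in every KO library, and their part in the differences of Lrat, or of other genes lower in treated colon, was not tested. Of the single goblet markers, Spink4 was lower in every treated than in every KO library, whereas Muc2, Tff3 and Clca1 overlapped. The log2 difference of Lrat for treated minus KO was -0.52 (-1.03 to -0.0072, unadjusted p = 0.0475, adjusted p = 0.680, limma). Without Colon KO 2, one of the libraries high in acinar transcripts, it was -0.59 (unadjusted p = 0.0653, limma).

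Rbp2, the cellular retinol-binding protein of enterocytes (mm9, 9:98390956-98410190, plus strand, the promoter shown first above), was at 1612, 1036 and 223 FPKM in treated, 547, 1979 and 286 in uninjected, and 343, 592, 498 and 129 in KO ileum libraries. In each group the library numbered 4 had the least Rbp2. The log2 difference of Rbp2 was 1.08 for treated minus KO (-0.54 to 2.71, unadjusted p = 0.167, adjusted p = 0.939) and 1.00 for uninjected minus KO (-0.61 to 2.61, unadjusted p = 0.194, adjusted p = 0.665, limma). Leaving out 1 library at a time moved the first value between 0.50 without Ileum treated 1 and 1.93 without Ileum treated 4, and the second between 0.23 without Ileum uninjected 3 and 1.62 without Ileum uninjected 4. With number 4 as a term in the fit, chosen after these values were seen, Rbp2 was 1.26 higher in treated than in KO (unadjusted p = 0.00229, adjusted p = 0.430, limma), and the adjusted p ran from 0.00656 to 0.999 over the alternatives, the lowest with array weights. Fabp1, a fatty acid-binding protein more abundant in the proximal than the distal small intestine, was at 625, 364 and 5.12 FPKM in treated, 24.4, 542 and 27.8 in uninjected and 40.8, 68.3, 38.3 and 16.7 in KO ileum libraries. The 3 libraries highest in Rbp2 (Ileum uninjected 3, Ileum treated 1 and Ileum treated 2) were thus the 3 highest in Fabp1, an observation made after the values were seen. Fabp1 is 1 of the 8 enterocyte markers, and no other of them had these 3 libraries as its 3 highest. Sis, another of them, was at 54.8, 445 and 426 FPKM in treated, 268, 48.3 and 304 in uninjected and 220, 266, 224 and 211 in KO ileum libraries. The part of these markers in the Rbp2 differences was not tested.

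The genes most like Rbp2 over the 10 ileum libraries, by Pearson's r of log2(FPKM + 0.5), were Apoc3 (r = 0.976), Cops8 (0.961) and Cox7a1 (0.961), of 11881 genes searched. The 10 points are libraries of 3 groups, so any gene that differs between these libraries as Rbp2 does scores high. In the colon Rbp2 was at 29.3, 55.7 and 41.3 FPKM in treated, 161, 43.1, 79.1 and 19.8 in uninjected, and 64.7, 70.4, 102 and 29.9 in KO libraries. The 3 groups overlapped, and the log2 differences were -0.58 for treated minus KO (-1.51 to 0.34) and -0.084 for uninjected minus KO (-1.44 to 1.27). With single libraries left out, the first lay between -0.92, without Colon KO 4, and -0.34, without Colon KO 3.

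Of the enzymes that oxidise retinol to retinal, Adh1 was abundant in every library and Rdh7 was nearly confined to the ileum. Adh1, a cytosolic alcohol dehydrogenase (mm9, 3:137923955-137953662, plus strand), was at 69.1, 50.6 and 64.1 FPKM in treated, 51.6, 57.0 and 29.1 in uninjected, and 33.7, 39.3, 53.9 and 20.2 in KO ileum libraries. Of the KO libraries only Ileum KO 3 lay above the lowest treated library, and Ileum uninjected 1 and Ileum uninjected 3 lay above it too. The log2 difference for treated minus KO was 0.79 (0.035 to 1.55, unadjusted p = 0.0421, adjusted p = 0.939, limma), and for uninjected minus KO 0.34 (-0.52 to 1.21). With single libraries left out, the second value lay between 0.087, without Ileum KO 4, and 0.64, without Ileum uninjected 4. In the colon Adh1 was at 329, 238 and 826 FPKM in treated, 1197, 751, 204 and 276 in uninjected, and 518, 637, 438 and 436 in KO libraries. The transgenic groups spread on both sides of the narrow KO range, and the log2 differences against KO were -0.32 (-1.24 to 0.60) for treated and -0.078 (-1.25 to 1.09) for uninjected. Over the 11 colon libraries the genes most like Adh1 were Thnsl2 (r = 0.940), 2810459M11Rik (0.929) and Iffo2 (0.928), of 12481 genes searched.

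Rdh7, a retinol dehydrogenase of the short-chain family (mm9, 10:127321084-127326095, minus strand), was at 20.4, 15.0 and 0 FPKM in treated, 0, 11.7 and 2.98 in uninjected, and 5.70, 9.35, 13.8 and 2.93 in KO ileum libraries. Ileum treated 4 and Ileum uninjected 1 held 0 recovered reads of Rdh7, whereas the other 8 ileum libraries held 175 to 570. The related genes Rdh9, Rdh16 and Rdh1 were read in both libraries. In Ileum treated 4, Rdh16 was at 9.51 FPKM, against 2.05 to 4.78 FPKM in the other 9 ileum libraries, while Rdh9 was at 37.0 and Rdh1 at 3.21 FPKM. In Ileum uninjected 1, Rdh1 was at 6.76 FPKM, the second highest of its range of 3.20 to 7.69 FPKM, Rdh16 was at 2.93 FPKM, and Rdh9 was at 41.4 FPKM in its range of 28.1 to 53.7 FPKM. The authors' counting could split reads between Rdh7 and its close paralogs, which was not tested, so the values of Rdh7 and of Rdh16 are uncertain. The log2 differences were -0.46 for treated minus KO (-3.10 to 2.18), -1.42 for uninjected minus KO (-3.54 to 0.70) and 0.97 for treated minus uninjected (-2.62 to 4.55), with unadjusted p of 0.702, 0.165 and 0.552. Without Ileum treated 4 the first was 1.28, and without Ileum uninjected 1 the second was -0.18, so single libraries at 0 set these values.

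In the colon Rdh7 was listed at 0 in all 3 treated and all 4 KO libraries and in 3 of 4 uninjected ones. Colon uninjected 3 alone held it, at 5.12 FPKM from 66 recovered reads, and that is the library with 1023.5 FPKM of ileal segment markers described above, whose part in the value was not tested. With 1 library above 0, no test between groups could be made.

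**Figure D3:**
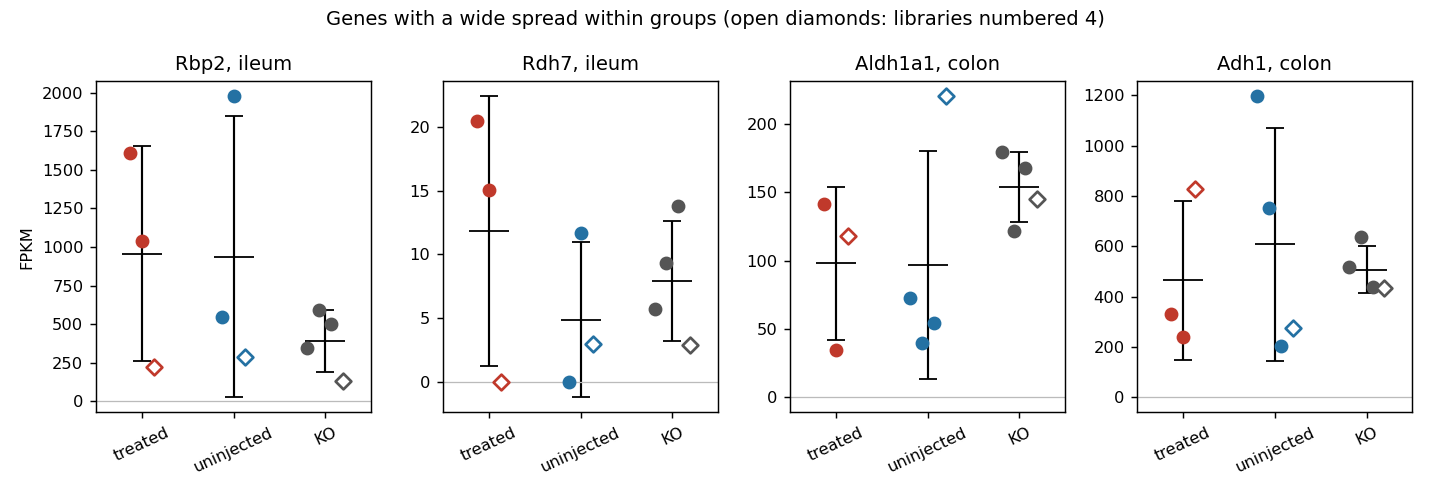
FPKM of Rbp2 and Rdh7 in the ileum and of Aldh1a1 and Adh1 in the colon, 1 point per library in the treated, uninjected and KO groups, with the mean (bar) and SD (whiskers); open diamonds are libraries numbered 4. In the ileum the library numbered 4 has the least Rbp2 of its group in all 3 groups, at 223, 286 and 129 FPKM.

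The 3 retinal dehydrogenases that make retinoic acid did not differ in 1 direction. In the ileum Aldh1a1 was lower in treated than in KO mice, and Aldh1a2 and Aldh1a3 were higher, none of them past the threshold. Aldh1a1 (mm9, 19:20676451-20717952, plus strand) was at 26.2, 51.8 and 43.3 FPKM in treated, 117, 36.5 and 58.8 in uninjected, and 112, 118, 110 and 76.1 in KO ileum libraries. All treated libraries lay below all KO libraries, and the uninjected ones spanned both groups. The log2 difference for treated minus KO was -1.39 (-2.07 to -0.72, unadjusted p = 0.00115, adjusted p = 0.381, limma), the smallest unadjusted p of any member in any comparison. Leaving out 1 library at a time moved it between -1.60 and -1.11. Uninjected and KO ileum differed by -0.69 (-1.59 to 0.20), by -1.14 without Ileum uninjected 1 and by -0.30 without Ileum uninjected 3, the highest and the lowest of that group. Treated and uninjected ileum differed by -0.70 (-1.87 to 0.47), and with single libraries left out by between -1.10, without Ileum uninjected 3, and -0.26, without Ileum uninjected 1.

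In the colon Aldh1a1 was at 142, 34.5 and 118 FPKM in treated, 72.7, 40.0, 54.5 and 220 in uninjected, and 180, 122, 168 and 145 in KO libraries. Of the 7 transgenic libraries 5 lay below all KO libraries, with Colon uninjected 4 above them and Colon treated 1 within their range. The log2 difference was -0.98 for uninjected minus KO (-2.02 to 0.065, unadjusted p = 0.0631, adjusted p = 0.721, limma) and -0.87 for treated minus KO (-1.91 to 0.17, unadjusted p = 0.0894, adjusted p = 0.734, limma). The second value was -0.24 without Colon treated 2, the shallowest library, so that 1 library carried most of it, and the first was -1.48 without Colon uninjected 4.

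Aldh1a2 (mm9, 9:71063596-71144050, plus strand) was at 7.63, 6.39 and 5.76 FPKM in treated, 2.63, 2.36 and 3.45 in uninjected, and 3.82, 3.67, 2.81 and 4.85 in KO ileum libraries. The 3 treated libraries were the 3 highest of the ileum. The log2 difference was 1.09 for treated minus uninjected (0.27 to 1.91, unadjusted p = 0.0154, adjusted p = 1.00, limma) and 0.74 for treated minus KO (0.15 to 1.32, unadjusted p = 0.0193, adjusted p = 0.939, limma). Uninjected and KO ileum differed by -0.36 (-0.96 to 0.23). Aldh1a3 (mm9, 7:73535778-73572403, minus strand) was at 5.44, 8.66 and 8.38 FPKM in treated, 4.27, 1.16 and 5.54 in uninjected, and 4.26, 3.81, 3.44 and 5.43 in KO ileum libraries. The lowest treated library was level with the highest KO library, and Ileum uninjected 4 lay within the treated range. Its log2 difference was 0.74 for treated minus KO (0.13 to 1.36, unadjusted p = 0.0233, adjusted p = 0.939, limma) and 1.10 for treated minus uninjected (-0.15 to 2.35, unadjusted p = 0.0774, adjusted p = 1.00, limma). Without Ileum uninjected 3, the lowest library, the second value of Aldh1a3 was 0.53.

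Aldh1a2 is known to be made by mesothelial, stromal and dendritic cells more than by the epithelium, so the markers of those cells are given beside it. Mesothelial markers (5 genes) summed to 9.11 to 24.5 FPKM in treated, 7.38 to 9.30 in uninjected and 7.39 to 12.4 in KO ileum libraries. Of these, mesothelin (Msln) was at 3.78, 4.76 and 0.657 FPKM in treated libraries, at 0.640, 0 and 0 in uninjected libraries and at 0 to 1.42 in KO libraries. Upk3b, Lrrn4 and Wt1 were, like Msln, highest in Ileum treated 1 and Ileum treated 2. The remaining marker, Upk1b, overlapped between the groups, at 9.20, 7.02 and 7.50 FPKM in treated, 6.34, 7.34 and 8.12 in uninjected and 6.06 to 8.22 in KO libraries. Stromal markers (7 genes) summed to 194 to 318, 144 to 376 and 158 to 246 FPKM, and dendritic and macrophage markers (7 genes) to 28.0 to 42.5, 19.7 to 38.3 and 18.5 to 35.7 FPKM, in treated, uninjected and KO libraries in that order. The part of these cells in the result was not tested.

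In the colon, Aldh1a2 was at 3.77, 2.98 and 5.62 FPKM in treated, 3.92, 5.18, 0.797 and 3.46 in uninjected, and 1.62, 2.43, 3.57 and 3.02 in KO libraries, and the groups overlapped. Aldh1a3 was at 2.17, 1.55 and 4.22 FPKM in treated, 1.06, 1.01, 0.340 and 2.01 in uninjected, and 1.40, 2.19, 1.21 and 2.49 in KO libraries. Its log2 difference for treated minus uninjected was 0.98 (-0.11 to 2.07, unadjusted p = 0.0716, adjusted p = 1.00, limma), and 0.64 without Colon treated 4. Colon uninjected 3 was the lowest colon library for both genes, with 15 recovered reads of Aldh1a2 and 10 of Aldh1a3.

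**Figure D4:**
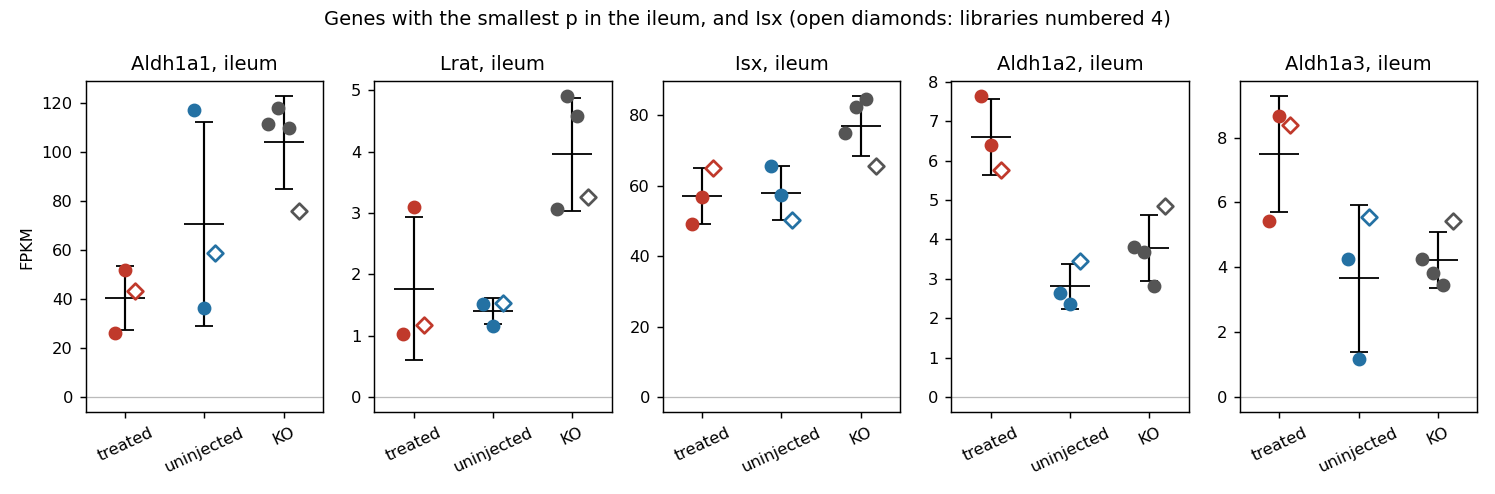
FPKM of Aldh1a1, Lrat, Isx, Aldh1a2 and Aldh1a3 in the ileum, 1 point per library in the treated, uninjected and KO groups, with the mean (bar) and SD (whiskers); open diamonds are libraries numbered 4. Aldh1a1 averages 40.4 ± 13.1 FPKM in treated and 104 ± 18.9 FPKM in KO libraries, and Aldh1a2 averages 6.60 ± 0.954 and 3.79 ± 0.839 FPKM in the same groups (SD, n = 3 and 4).

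Cyp26b1, which breaks down retinoic acid (mm9, 6:84521938-84543740, minus strand), had the lowest mean of the 9 members in each ileum group. It stood at 1.04, 1.41 and 0.596 FPKM in treated, 0.523, 0.854 and 0.413 in uninjected, and 1.08, 0.716, 1.46 and 0.913 in KO ileum libraries. The groups overlapped, and the log2 difference for treated minus KO was -0.047 (-0.75 to 0.66). Below a mean of 1 FPKM an exact permutation test (two-sided, on mean FPKM) was used, which gave p = 0.114 for uninjected minus KO and p = 0.2 for treated minus uninjected ileum, where the smallest possible values are 0.0571 and 0.1. In the colon it ranged from 0.181 to 1.11 FPKM in treated, 0.124 to 0.543 in uninjected and 0.379 to 0.703 in KO libraries, with exact permutation p of 1.0 for treated minus KO and 0.314 for uninjected minus KO; treated set against uninjected gave an exact permutation p of 0.743.

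Isx, an intestinal homeobox factor that is known to be induced by retinoic acid and to repress the carotenoid genes Bco1 and Scarb1 (mm9, 8:77396618-77417405, plus strand), was at 49.3, 56.9 and 65.0 FPKM in treated, 65.7, 57.4 and 50.4 in uninjected, and 75.0, 82.2, 84.7 and 65.7 in KO ileum libraries. All 3 treated libraries lay below the lowest KO library, and Ileum uninjected 1, the highest of its group, was level with it. The log2 difference was -0.44 for treated minus KO (-0.95 to 0.078, unadjusted p = 0.0870, adjusted p = 0.939, limma) and -0.41 for uninjected minus KO (-0.96 to 0.14, unadjusted p = 0.127, adjusted p = 0.665, limma). In the colon Isx was at 72.8, 23.8 and 30.9 FPKM in treated, 44.4, 27.7, 25.4 and 45.7 in uninjected, and 60.6, 35.4, 67.2 and 38.2 in KO libraries, and the groups overlapped. Scarb1, a lipid and carotenoid receptor, had a log2 difference of 0.71 for treated minus KO ileum (0.051 to 1.37, unadjusted p = 0.0376) and Bco1, the carotenoid-cleaving enzyme listed as Bcmo1, one of -0.82 (-1.75 to 0.10, unadjusted p = 0.0750), both with an adjusted p of 0.939 (limma) and both named here after their values were seen, as reported targets of Isx.

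Markers of the ileal segment (4 genes) were also lower in treated ileum. They summed to 3877, 6767 and 8378 FPKM in treated, 14209 to 38010 in uninjected and 14192 to 36250 in KO ileum libraries, with none of the 4 at 0 in any. Fabp6 made up most of this sum in every ileum library. The part of the ileal segment, or of position along the ileum, in the differences of Aldh1a1, Lrat and Isx was not tested.

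Each difference in the ileum was also set against the same difference in the colon, in 1 limma fit over both tissues. The fit took colon and ileum libraries as independent, although the labels do not say whether they came from the same mice. No member passed: 0 of 8 tested for treated minus KO against 1 of 12448 genes (0.00803%), 0 of 8 for uninjected minus KO against 1 of 12364 genes (0.00809%), and 0 of 8 for treated minus uninjected against 0 of 12437 genes (0%). At an unadjusted p under 0.05 these fits held 462 genes (3.71%), 147 genes (1.19%) and 28 genes (0.225%), and none of the members. The member nearest to it was Lrat for uninjected minus KO, 0.92 lower in its ileum effect than in its colon effect (log2 -0.92, -1.86 to 0.020, unadjusted p = 0.0545, adjusted p = 1.00). For Rbp2 the ileum effect of treated minus KO exceeded that of the colon by 1.67 (-0.30 to 3.63), and for Adh1 by 1.12 (-0.056 to 2.29).

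Of 53 further retinoid genes listed by role, 51 were found, 35 to 37 were tested in each comparison, and none passed the threshold in any. The lists, like the members, were chosen with earlier results of these data known. At an unadjusted p under 0.05 there were 8 of 37 in treated minus KO colon, 2 of 37 in uninjected minus KO colon, 2 of 37 in treated minus uninjected colon, 6 of 35 in treated minus KO ileum, 1 of 36 in uninjected minus KO ileum and 0 of 36 in treated minus uninjected ileum. The shares of all genes tested at that p were 7.31%, 4.6%, 1.14%, 3.65%, 5.42% and 0.821% in the same order. The median log2 difference of the further retinoid genes was -0.012, 0.070, -0.10, 0.11, 0.031 and 0.017 in the same order, beside -0.0087, -0.0071, -0.0079, 0.0021, 0.015 and -0.018 for all genes tested. The median of the members tested was -0.36, -0.29, 0.11, -0.047, -0.39 and 0.29. By role, the median for treated minus KO ileum was 0.11 over 7 binding and transport genes, -0.54 over 2 carotenoid cleavage genes, 0.44 over 4 genes of ester formation and hydrolysis, 0.037 over 16 genes of retinol and retinal interconversion, -0.83 over 2 genes of retinoic acid synthesis and breakdown and 0.30 over 4 receptors.

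The aldo-keto reductases Akr1b8 and Akr1b7, which can reduce retinal to retinol, had the smallest p-values among these genes in both comparisons of treated colon. Akr1b8 averaged 40.1 ± 6.56 FPKM in treated, 71.1 ± 19.6 in uninjected and 108 ± 32.3 in KO libraries (SD, n = 3, 4 and 4), a log2 difference of -1.39 for treated minus KO (-1.99 to -0.80, adjusted p = 0.102, limma). Akr1b7 averaged 3.41 ± 0.856, 10.0 ± 1.81 and 8.90 ± 2.89 FPKM in the same groups, a log2 difference of -1.44 for treated minus uninjected (-2.10 to -0.78, unadjusted p = 0.00085, adjusted p = 1.00, limma) and -1.24 for treated minus KO (-1.90 to -0.59, adjusted p = 0.204, limma). For treated minus KO ileum the log2 difference was 0.52 for Akr1b8 (-0.18 to 1.22) and -1.03 for Akr1b7 (-2.03 to -0.024), both with an adjusted p of 0.939 (limma). The ileum effect of Akr1b8 for treated minus KO exceeded that of the colon by 1.91 (1.04 to 2.79, unadjusted p = 0.00036, adjusted p = 0.333, limma). As for Lrat, the sums of goblet and of smooth muscle markers given above were lower in treated than in KO colon, and their part was not tested. The next by p for treated minus KO colon were Cyp2s1 (-0.68) and Ttr (-1.30), and for uninjected minus KO colon Fabp5 (1.23), Scarb1 (0.61), Rdh13 (-0.53) and Akr1b8 (-0.60). For treated minus uninjected colon they were Akr1b8 (-0.79), Cd36 (1.57) and Ttr (-1.46). In Colon uninjected 3 the 3 liver markers, which include Ttr, summed to 455 FPKM, against at most 109 in the other colon libraries.

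In both comparisons of a transgenic group with KO ileum the smallest p belonged to Aldh1a7, a close paralog of Aldh1a1. It averaged 5.78 ± 3.62 FPKM in treated, 8.37 ± 6.20 in uninjected and 18.6 ± 4.93 in KO libraries (SD, n = 3, 3 and 4), a log2 difference of -1.76 for treated minus KO (-2.74 to -0.78, unadjusted p = 0.00279, adjusted p = 0.587, limma) and -1.46 for uninjected minus KO (-2.82 to -0.11, unadjusted p = 0.0374, adjusted p = 0.665, limma). Reads of Aldh1a7 and Aldh1a1 could be split between the paralogs by the authors' counting, so their differences are not separate evidence. After Aldh1a7, treated minus KO ileum had Adh6a (1.39), Rbp7 (-1.25) and Rdh16 (0.87), uninjected minus KO ileum had Stra6 (0.88), Lipe (0.98) and Dgat1 (0.96), and treated minus uninjected ileum had Cd36 (1.43), Rdh16 (0.78), Stra6 (-0.90) and Akr1b7 (-0.81), each a log2 difference with an adjusted p between 0.665 and 1.00 (limma).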

How the data were processed

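Poly(A) RNA libraries of mouse colon and ileum were sequenced, and the authors deposited 6 tables of FPKM values, each for 2 groups of 1 tissue. Per the labels' protocols reads were mapped with CLC Genomics Workbench. The genome build mm9 and the tools DESeq2, DESeq 1.14.0 and kallisto 0.45.0 appear in the submitters' processing notes, without their use. A library's values in 2 tables differed by 1 constant factor (0.989 to 1.09), so tests were run within a table, and levels were brought to 1 scale per tissue.

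Whole reads could be recovered from the FPKM steps for 15495 of 19057 genes above 0 (81.3%, tolerance 0.01) and for 8 of the 9 members. Groups came from the labels. Libraries are named by the number in the column name, and those of treated mice and of uninjected ileum could be tied to a group but not to 1 labelled sample. By the series text the colon had 4 treated and 3 uninjected samples; by its labels and columns, 3 treated and 4 uninjected.

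limma 3.58.1 (R 4.3.3) was fitted to log2(FPKM + 0.5) with an intensity trend, for genes averaging 1 FPKM or more, in a table of 2 groups, and for tissue differences over both tables. Members under that mean had an exact two-sided permutation test (scipy 1.17.1). The code was tested on simulated data. The text names the 9 members, up to 4 further retinoid genes per comparison by unadjusted p, the 3 genes most like the highest member of each tissue, and others only where it says so. Members and lists were chosen with earlier results of these data known.

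Alternatives covered the pseudocount, level filter, scaling, prior, joint fit, array weights, replicate block and left-out libraries. Voom on recovered reads, most replicate blocks and a term for library number 4 were added after the data were seen. Deviations of same-numbered libraries correlated positively in all 3 pairs for treated minus KO ileum and for treated minus uninjected colon. For numbers 1, 2 and 4 the correlations were 0.227, 0.113 and 0.505 in that ileum comparison (11974 genes). In that colon comparison they were 0.221, 0.0687 and 0.392 (12567 genes). Ileum treated 2 correlated more with Ileum KO 3 (0.239) than with Ileum KO 2. Colon treated 2 correlated more with Colon uninjected 3 (0.318) than with Colon uninjected 2. The pairing comes from the column numbers, and what a number marks is not given in the sources used here.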

Additional observations from a re-analysis of the deposited data

Results flagged for a closer look

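In groups of 4 libraries, a library was picked out where its gap to the nearest other took up an unusually large share of the group's range (Dixon's 95% critical value). Of 26 such groups of member values 3 were picked out, and chance flags about 1 in 20. Lrat was at 1.22 FPKM in Colon KO 2, below the 1.53 to 1.59 FPKM of the other KO colon libraries, with a gap of 0.840 of the range. Colon KO 2 also held 37336 FPKM of acinar markers, whose part was not tested. Rdh7 was at 5.12 FPKM in Colon uninjected 3 and at 0 in the other 3 uninjected colon libraries. Cyp26b1 was at 0.124 FPKM in Colon uninjected 2, against 0.532 to 0.543 FPKM in the other uninjected colon libraries, with a gap of 0.974 of the range.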

How the results depend on the processing

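No member passed the threshold under any alternative other than array weights. Of 920 alternative member values, 53 changed sign, 30 of them by leaving out a library, and 16 passed the threshold, all with array weights. Where a value changed sign or a count moved, the cause was not tested. Comparisons are given below as treated minus KO, uninjected minus KO and treated minus uninjected. With array weights, genes called were 337, 6446 and 1411 in the colon and 2439, 314 and 627 in the ileum, and members called 0, 4 and 1, then 6, 2 and 3. In those fits Ileum treated 2 carried 97.9% of the weight for treated minus KO and 95.4% for treated minus uninjected ileum, and both fits did not converge. The highest share elsewhere was 35.8%, 35.6% and 45.6% in the colon and 29.1% for uninjected minus KO ileum. Array weights turned Isx to 0.46 (treated minus KO colon), Adh1 to 0.42 (uninjected minus KO colon), Aldh1a2 to -0.26 and Lrat to 0.039 (treated minus uninjected colon), Rdh7 to 1.04 and Cyp26b1 to 0.40 (treated minus KO ileum) and Aldh1a3 to 0.056 (uninjected minus KO ileum). With 3 groups in 1 fit, 20 and 4 genes were called for treated minus KO and treated minus uninjected colon, and 4 and 2 in the ileum. For uninjected minus KO ileum 2 genes were called with a pseudocount of 0.1, a mean of at least 5 FPKM or number 4 as a term, and 0 by voom, which called 5 for treated minus KO ileum. Without a level filter 1 gene was called for treated minus uninjected colon. The tissue difference of uninjected minus KO had 0 genes with a pseudocount of 0.1 and 2 with 1. Quantile normalization turned Cyp26b1 to 0.12 (treated minus KO ileum) and Isx to 0.13 (treated minus uninjected ileum). Number 4 as a term turned Aldh1a1 to -0.010 (treated minus uninjected colon). The replicate block gave 18, 3 and 5 genes in the colon and 11, 0 and 36 in the ileum, and 0 members. With the block, Aldh1a1 was -0.059, Aldh1a2 -0.049 and Isx -0.029 (treated minus uninjected colon), Cyp26b1 0.078 (treated minus KO ileum) and Lrat -0.35 (treated minus uninjected ileum). What same-numbered libraries share besides the number is not given. Over all comparisons their correlations for number 4 ran from 0.218 to 0.671 and those for other numbers from -0.396 to 0.382. Pairs of unlike numbers ran from -0.670 (Ileum treated 4 with Ileum uninjected 3) to 0.736 (Ileum treated 1 with Ileum uninjected 3), the highest of all pairs. Leaving out Colon uninjected 3 and Colon KO 2 gave 17, 3 and 4 genes in the colon, Adh1 0.44 (uninjected minus KO), and Aldh1a1 -0.059, Aldh1a2 -0.049 and Isx -0.029 (treated minus uninjected). For treated minus uninjected colon this setting, the replicate block and leaving out Colon uninjected 3 alone all hold the same libraries. Their differences there are thus the same estimate, counted more than once among the sign changes. Leaving out the libraries numbered 4 gave 12 and 2 genes for treated and uninjected minus KO colon, Rbp2 0.082 and Adh1 0.12 (uninjected minus KO colon), and Rdh7 0.91 and Cyp26b1 0.14 (treated minus KO ileum). Leaving out 1 library at a time gave 17 to 49, 2 to 68 and 0 to 4 genes in the colon and 3 to 14, 0 to 5 and 0 in the ileum. It moved Adh1 between -0.84 and 0.054 (treated minus KO colon). For uninjected minus KO colon it moved Aldh1a2 between -0.12 and 0.59, Adh1 between -0.52 and 0.33 and Rbp2 between -0.58 and 0.42. For treated minus uninjected colon it moved Adh1 between -0.77 and 0.20, Aldh1a1 between -0.27 and 0.74, Aldh1a2 between -0.049 and 0.67 and Isx between -0.35 and 0.45. In the ileum it moved Cyp26b1 between -0.24 and 0.17 and Rdh7 between -1.44 and 1.28 (treated minus KO), Aldh1a3 between -0.73 and 0.20 (uninjected minus KO), and Rbp2 between -0.54 and 0.92, Rdh7 between -0.26 and 2.67, Isx between -0.14 and 0.078 and Lrat between -0.25 and 0.37 (treated minus uninjected). With 3 or 4 libraries a group and as few as 10 reads for a member, small differences were not detectable.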
